A study of Mus musculus with 8 samples.

Results

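miR-103-3p and miR-107-3p (listed as mmu-miR-103-3p and mmu-miR-107-3p) are a pair of near-identical mature miRNAs cut from hairpins in introns of the Pank genes. Both are rows of a table of 1915 mature miRNAs counted in mouse embryonic stem cells, and they are the 2 members described here. They were picked by name with their values in all 8 libraries already known, so every level and fold change of the pair is given as a description, without a test. The cells were labelled as blastocyst-derived and of the same strain background, with a label ending in Ola, in all 8 libraries. They grew with 15% serum and LIF at 100 U/mL, and each group has 2 small RNA libraries. The first group is an AGO1 line (libraries A and B) whose ectopic AGO1 was induced by 1 µg/mL of doxycycline. The second is the same line without doxycycline (A and B). Both AGO1 groups were kept in puromycin at 2 µg/mL, which is not listed for the other groups. The third is Ago2 knockout cells (lines 1 and 2), and the last is wild type E14 cells (A and B). The labels name knockout line 1 as the parent of the AGO1 line, so both AGO1 groups lack Ago2 as well. They give 1 name to the AGO1 line in its 4 libraries, and whether A and B come from separate cultures is not stated. Ago2 and AGO1 were not measured in this table, so the genotypes and the induction rest on the labels.

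A miRNA is loaded into an Argonaute protein, and its seed (bases 2 to 8) pairs with target messages, which are then repressed. AGO2 is the Argonaute with strong slicing activity, and AGO1 carries miRNAs as well. Each miR-103 or miR-107 hairpin lies within a gene for pantothenate kinase, the enzyme that starts coenzyme A synthesis. The pair is known for repressing Dicer1, which encodes the enzyme that cuts hairpins into mature miRNAs, and for lowering insulin sensitivity through caveolin-1 in fat and liver.

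The mature sequences are shown because they set what the counts can separate. In the RefSeq table on GRCm38.p6 each has 23 bases, with the seed here in capitals, and no other miRNA of the table has this seed:
miR-103-3p: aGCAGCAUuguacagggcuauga
miR-107-3p: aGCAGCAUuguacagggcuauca
The match to the seed in a target message is AUGCUGC. The miRNAs differ at 1 base, G22C from miR-103-3p to miR-107-3p, counted from the 5′ end, so 22 of 23 bases are identical. A read that ends within the first 21 bases is the same for both, and how the submitters counted such reads or mismatches is not given in the sources used here. Changes of the rarer miR-107-3p and misplaced reads of miR-103-3p therefore cannot be told apart.

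miR-103-3p has 2 genes that yield the same mature sequence, and miR-107-3p has 1. The hairpins are shown with the 3p arm in capitals:
Mir103-1: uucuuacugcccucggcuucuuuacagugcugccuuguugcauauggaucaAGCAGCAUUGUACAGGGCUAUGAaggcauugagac
Mir103-2: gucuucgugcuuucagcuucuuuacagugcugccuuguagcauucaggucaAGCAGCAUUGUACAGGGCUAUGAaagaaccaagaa
Mir107: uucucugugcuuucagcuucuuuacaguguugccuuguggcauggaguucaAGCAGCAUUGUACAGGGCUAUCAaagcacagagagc
Mir103-1 spans chr11:35782396-35782481 on the plus strand, in intron 5 of Pank3. Mir103-2 spans chr2:131288052-131288137 on the plus strand, in an intron of 7 of the 8 annotated transcripts of Pank2. Mir107 spans chr19:34820687-34820773 on the minus strand, in an intron of 3 of the 4 transcripts of Pank1. Each hairpin lies on its host's strand and overlaps no exon of it (GENCODE vM21 on GRCm38). Aligned end to end, Mir103-1 and Mir103-2 match at 69 of 86 positions, and Mir103-2 and Mir107 at 73 of 87. Host gene mRNA was not analysed here.

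Library totals ranged from 163467 counts (knockout 2) to 1326638 counts (AGO1 line with doxycycline, A). CPM are counts brought to the same library total after edgeR's TMM correction. The limit set by a count of 0 was taken as 3 counts, which is 2.57 to 15.1 CPM by library. Summed together, the 10 stem cell markers, miRNAs of the miR-290-295 and miR-302-367 clusters, held 19.97 to 24.3% of counts in each library, though single members differed between groups. Among markers of other cells, the liver miRNA miR-122-5p had no count in any library, and the 4 muscle miRNAs summed to 0 to 6.61 CPM. Of the 5 blood markers miR-451a and miR-223-3p were at 0 counts in all libraries, but the list summed to 1834 to 6716 CPM by library. The fibroblast list summed to 543 to 3814 CPM and the neural list to 813 to 2061 CPM.

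miR-103-3p was 16.1-fold lower in knockout than in wild type cells by the ratio of mean CPM, and induction of AGO1 went with a level 6.32 times that of the uninduced line. It had 1624 and 1439 counts in AGO1 line A and B with doxycycline, and 169 and 67 counts in A and B without it. Knockout lines 1 and 2 had 101 and 35 counts, and wild type A and B 3042 and 3655 counts. These are 1389 and 1434 CPM with doxycycline, 225 and 222 CPM without it, 252 and 176 CPM in the knockout lines, and 3609 and 3288 CPM in wild type. The 4 libraries without AGO2 and without induced AGO1 were low, the 2 induced libraries lay between, and the 2 wild type libraries were high. The uninduced and knockout groups overlapped.

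**Figure D1:**
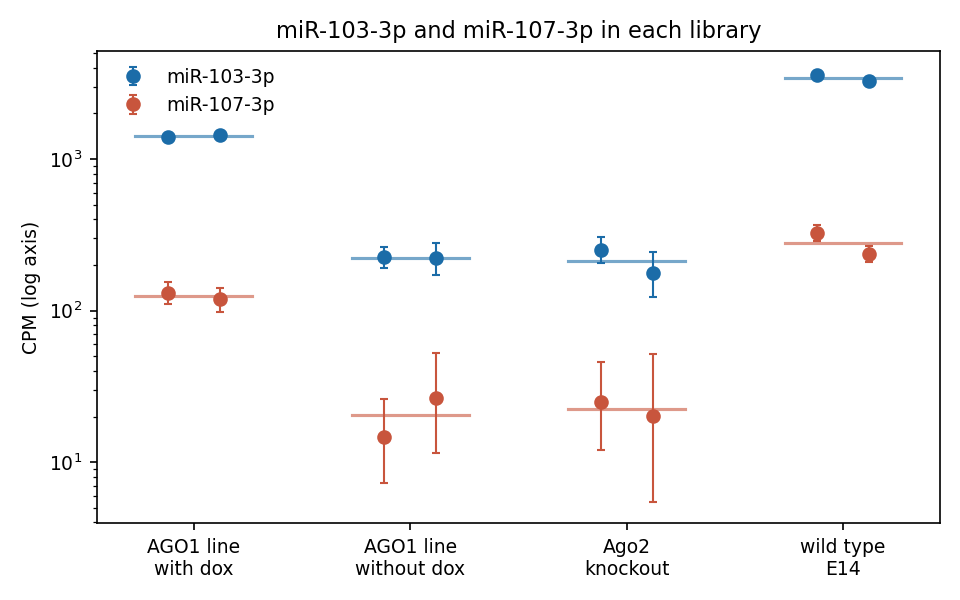
CPM on a log axis for miR-103-3p (blue) and miR-107-3p (red) in each of the 8 libraries, by group. Bars on points are 95% Poisson intervals of the count and horizontal lines are group means. Both miRNAs are lowest in the uninduced AGO1 line and the knockout and highest in wild type, where the means are 3449 and 280 CPM.

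miR-107-3p followed the same order at a lower level. It had 153 and 119 counts in the AGO1 line with doxycycline, 11 and 8 without it, 10 and 4 in the knockout lines, and 273 and 262 in wild type. In CPM this is 131 and 119 with doxycycline, 14.6 and 26.5 without it, 24.9 and 20.1 in the knockout lines, and 324 and 236 in wild type. With so few counts the uninduced and knockout values are loose. The 95% Poisson interval was 5.48 to 51.5 CPM in knockout line 2 and 7.31 to 26.2 CPM in uninduced library A. These intervals hold counting error alone and leave out variation between cultures and library preparations. They also treat each count as separate, although PCR copies of 1 molecule could not be recognised.

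Group means of miR-103-3p were 1412 ± 31.8 CPM in the induced AGO1 line, 223 ± 2.42 CPM in the uninduced line, 214 ± 53.7 CPM in the knockout and 3449 ± 228 CPM in wild type (SD, n = 2 each). Those of miR-107-3p were 125 ± 8.68, 20.5 ± 8.35, 22.5 ± 3.41 and 280 ± 62.4 CPM in the same groups. Both thus stood highest in wild type and next highest in the induced line, and the uninduced line and the knockout, neighbours at the low end, did not differ beyond their spread. Among the 475 miRNAs that passed the abundance filter, miR-103-3p ranked 62 and 57 by level in the induced libraries, 149 and 150 in the uninduced ones, 137 and 165 in the knockout lines, and 38 and 37 in wild type. Together the pair held 0.134 and 0.139% of counts in the induced libraries, 0.0244 and 0.0256% in the uninduced ones, 0.0309 and 0.0239% in the knockout lines, and 0.349 and 0.351% in wild type. In total RNA, fewer cells with the miRNA and fewer copies per cell cannot be told apart.

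In the knockout against wild type, the comparison that asks how miRNA levels differ without AGO2, the 4 ratios of a knockout library to a wild type library were 0.0488 to 0.0766 for miR-103-3p and 0.0621 to 0.106 for miR-107-3p. The edgeR log2 fold changes were -3.99 and -3.59. All knockout libraries lay below all wild type libraries for both miRNAs, as they did for 42.9% of all tested miRNAs. At least 4-fold lower values were found for 14.9% of tested miRNAs. From the lowest log2 fold change upward, miR-103-3p ranked 10 and miR-107-3p 17 of 475.

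Without doxycycline the AGO1 line stood near the knockout. Library ratios ran from 0.879 to 1.28 for miR-103-3p and from 0.587 to 1.31 for miR-107-3p, with log2 fold changes of 0.04 and -0.29. Neither miRNA separated the groups, whereas 22.1% of tested miRNAs were higher in both uninduced libraries and 22.5% lower. Set against knockout line 1 alone, the parent line, the 225 and 222 CPM of miR-103-3p in the uninduced libraries compare with 252 CPM.

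With doxycycline against without it, a comparison of induced and uninduced AGO1 in cells that lack AGO2, both miRNAs were higher in both induced libraries. Doxycycline was listed for the induced libraries alone, so effects of the drug and of AGO1 cannot be told apart. Library ratios were 6.17 to 6.47 for miR-103-3p and 4.48 to 8.94 for miR-107-3p, and log2 fold changes 2.66 and 2.71. Higher values in both induced libraries were found for 38.3% of tested miRNAs, and at least 4-fold higher ones for 9.68%. The pair belongs to the 40 of 475 miRNAs (8.42%) that were at least 4-fold lower in the knockout than in wild type and at least 4-fold higher with doxycycline than without, comparisons that share no library. By edgeR's test, 90 miRNAs (18.9%) were called lower in the first and higher in the second, which is 58.8% of the 153 lower calls and 90.0% of the 100 higher calls.

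Induced cells stayed below wild type for both. Library ratios of the induced AGO1 line to wild type were 0.385 to 0.436 for miR-103-3p and 0.366 to 0.555 for miR-107-3p, with log2 fold changes of -1.29 and -1.16. Both induced libraries were below both wild type libraries, as for 36.0% of tested miRNAs. Set directly against the knockout, the ratio of means for the induced line was 6.60 for miR-103-3p and 5.53 for miR-107-3p. For the uninduced line against wild type these ratios were 0.0647 and 0.0734. These comparisons share libraries with each other, so their values are not independent.

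**Figure D2:**
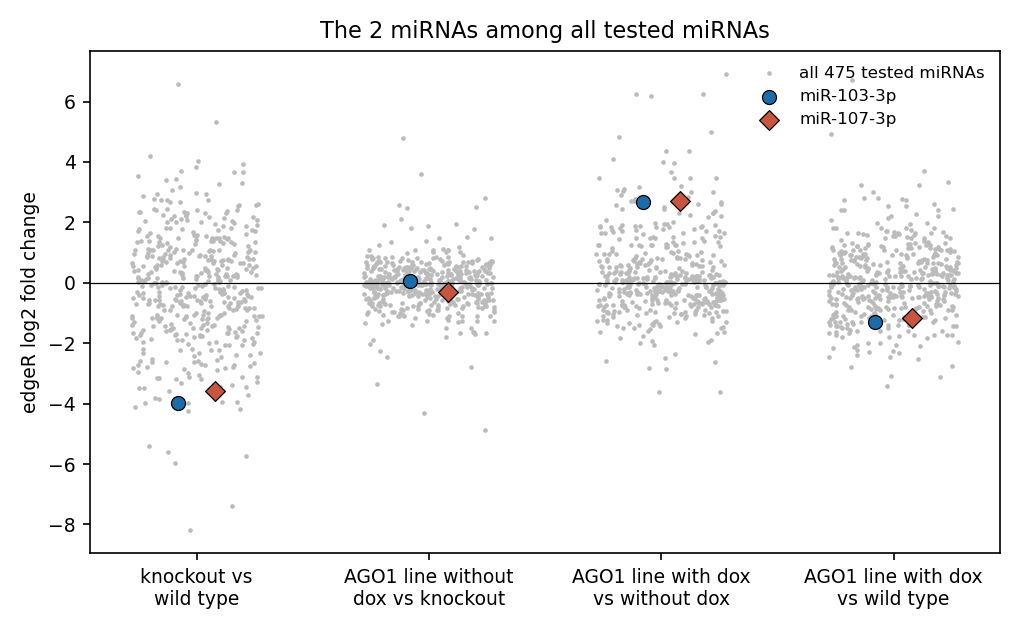
edgeR log2 fold changes of all 475 tested miRNAs (grey points, spread sideways for visibility) in the 4 comparisons, with miR-103-3p (blue circles) and miR-107-3p (red diamonds). The pair lies at -3.99 and -3.59 in the knockout against wild type, near 0 without doxycycline against the knockout, at 2.66 and 2.71 with doxycycline against without, and at -1.29 and -1.16 against wild type.

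Depth moved with these levels. The 4 libraries in which the pair was low had totals of 163467 to 736895 counts, and the 4 in which it was high had 949620 to 1326638. Within the uninduced line the deeper library A (736895 counts) and the shallower B (292895 counts) gave 225 and 222 CPM of miR-103-3p. Within the knockout the deeper line 1 (359099 counts) gave 252 CPM and the shallower line 2 (163467 counts) gave 176 CPM. Markers of fibroblasts moved too. Their 6 miRNAs summed to 2018 to 2225 CPM in the induced line and 562 to 602 in the uninduced line. In the knockout they summed to 543 to 589 CPM and in wild type to 3303 to 3814. Of the 6, miR-214-3p alone had 0 counts in all libraries. Without miR-143-3p, left out after its values were seen, the other 5 summed to 237 to 283 CPM with doxycycline, 310 to 311 without it, 196 to 237 in the knockout and 125 to 161 in wild type. The 5 blood markers ran the other way, at 3710 to 3871 CPM with doxycycline, 6210 to 6716 without it, 5715 to 6389 in the knockout and 1834 to 1881 in wild type. Their 4 neural counterparts summed to 1057 to 1214 CPM with doxycycline, 813 to 1177 without it, 905 to 958 in the knockout and 1662 to 2061 in wild type. Single stem cell markers moved as well, with doxycycline against without it. edgeR called miR-290a-5p (log2 fold change 0.60), miR-291a-3p (0.75) and miR-293-3p (0.72) higher, and miR-302a-3p (-1.88) and miR-302b-3p (-1.23) lower. The rest of that list did not pass, and of all tested miRNAs 21.1% were called higher and 7.79% lower. The part of depth and of these markers in the levels of the pair was not tested.

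The balance of the pair is given as a description, without a test between groups. Counts of miR-103-3p per count of miR-107-3p were 10.6 and 12.1 in the induced libraries, 15.4 and 8.38 in the uninduced ones, 10.1 and 8.75 in the knockout lines, and 11.1 and 14.0 in wild type. The 95% exact binomial interval was 9.84 to 12.7 in wild type A and 3.13 to 33.9 in knockout line 2. Pooled within groups the ratios were 11.3 with doxycycline (interval 9.94 to 12.8), 12.4 without it (7.78 to 21.0), 9.71 in the knockout (5.59 to 18.2) and 12.5 in wild type (11.5 to 13.7). All these group intervals overlap, and the lowest and the highest ratio were both in the uninduced line, where counts were few. The intervals hold counting error alone and leave out variation between libraries, so their overlap is not a test. Misplaced reads of miR-103-3p cannot be told apart from miR-107-3p here either.

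**Figure D3:**
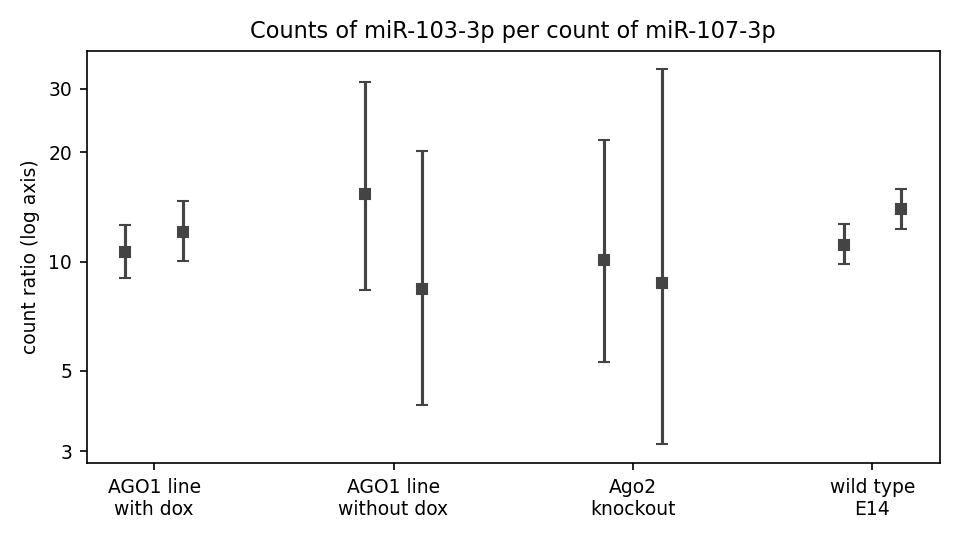
Counts of miR-103-3p divided by counts of miR-107-3p in each library, on a log axis, with 95% exact binomial intervals. Ratios lie between 8.38 and 15.4, and the intervals of the 4 libraries with few counts are the widest.

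The opposite arms were not used to choose the pair, and they were almost absent. In the RefSeq table they are:
miR-103-1-5p: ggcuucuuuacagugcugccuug
miR-103-2-5p: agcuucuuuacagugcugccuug
miR-107-5p: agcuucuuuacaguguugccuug
miR-103-1-5p, from the Pank3 intron, differs from miR-103-2-5p, from the Pank2 intron, by G1A only, so a full-length 5p read separates these 2 genes. miR-103-1-5p had 1 count in all, in induced library B. miR-103-2-5p had 1 count in induced library B and 1 in wild type A. miR-107-5p had 3 counts in induced library A and 3 in wild type B. None of the 5p arms had a count in the uninduced or knockout libraries, where a count of 0 allows 3.99 to 15.1 CPM. The 5p arms made up 3 of 10135 counts of the miR-103 hairpins (0.0296%, exact 95% interval 0.00610 to 0.0865%) and 6 of 846 counts of miR-107 (0.709%, 0.261 to 1.54%). All 3 fell below the abundance filter and were not tested, so which Pank locus contributed could not be resolved from these counts.

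Nearly the whole seed is shared with the miR-15 and miR-16 group, which restrains the cell cycle. RefSeq's table holds 11 further mouse miRNAs that carry AGCAGC from base 1 or 2, in each of them from base 2, and the 6 that passed the filter are shown with it in capitals, after the pair:
miR-103-3p: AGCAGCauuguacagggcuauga
miR-107-3p: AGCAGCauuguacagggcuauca
miR-15a-5p: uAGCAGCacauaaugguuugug
miR-15b-5p: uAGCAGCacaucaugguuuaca
miR-16-5p: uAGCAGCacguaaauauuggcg
miR-195a-5p: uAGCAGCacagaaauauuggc
miR-322-5p: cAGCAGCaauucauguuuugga
miR-497a-5p: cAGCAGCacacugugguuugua
In these relatives the hexamer is shifted by 1 base, so their seeds are not that of the pair. The other 5 were not tested: miR-503-5p had 0 to 5 counts a library, and miR-195b, miR-6342, miR-6353 and miR-6419 had none.

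None of the 6 tested relatives fell in the knockout, while 2 rose, against 32.2% of all tested miRNAs called lower and 25.5% called higher. Their median log2 fold change was 0.28, and that of all tested miRNAs -0.12. miR-195a-5p had 205 and 287 CPM in knockout lines 1 and 2, against 86.6 and 78.3 CPM in wild type A and B. It rose by 1.56 ± 0.30 (SE) on the log2 scale (edgeR adjusted p = 0.00165). miR-322-5p, from an X-linked cluster with miR-503, had 561 and 277 CPM in the knockout lines, against 168 and 138 CPM in wild type, a rise of 1.48 ± 0.32 (edgeR adjusted p = 0.00375). miR-16-5p, the most abundant relative, averaged 21918 ± 4368 CPM in the knockout and 21298 ± 356 CPM in wild type (SD, n = 2 each), and its change of 0.04 ± 0.17 (log2) did not pass (edgeR adjusted p = 0.840). miR-15a-5p (0.16), miR-15b-5p (-0.36) and miR-497a-5p (0.40) did not pass either. Without library 2 of the knockout and B of the uninduced line, the 2 shallowest, miR-16-5p passed at 0.42 (edgeR adjusted p = 0.0254). The call of miR-497a-5p was gained without TMM factors (0.72, edgeR adjusted p = 0.0102) and when wild type A was left out (0.75, edgeR adjusted p = 0.0469).

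With doxycycline against without it, 1 of the 6 relatives was lower and none higher, against 7.79% of all tested miRNAs called lower and 21.1% called higher. It was miR-195a-5p, at 152 and 109 CPM with doxycycline and 286 and 298 CPM without it (-1.16 ± 0.28 by edgeR, adjusted p = 0.0129). That call was lost without uninduced library A (edgeR adjusted p = 0.107) and without induced library B (edgeR adjusted p = 0.148). miR-322-5p, at -0.60 (edgeR adjusted p = 0.181), passed in a fit of the 2 groups alone (edgeR adjusted p = 0.0153), without the 2 shallowest libraries (edgeR adjusted p = 0.0266) and with a replicate block of the letters (edgeR adjusted p = 0.0141). The pair's own values, 2.66 and 2.71, had the sign opposite to miR-195a-5p and miR-322-5p. Of the remaining relatives, miR-15a-5p (-0.39) and miR-16-5p (-0.05) were negative, and miR-15b-5p (0.16) and miR-497a-5p (0.17) positive. None of these was called in the fit of all libraries. The difference of the pair from the relatives was not tested since the pair was chosen with its values known.

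**Figure D4:**
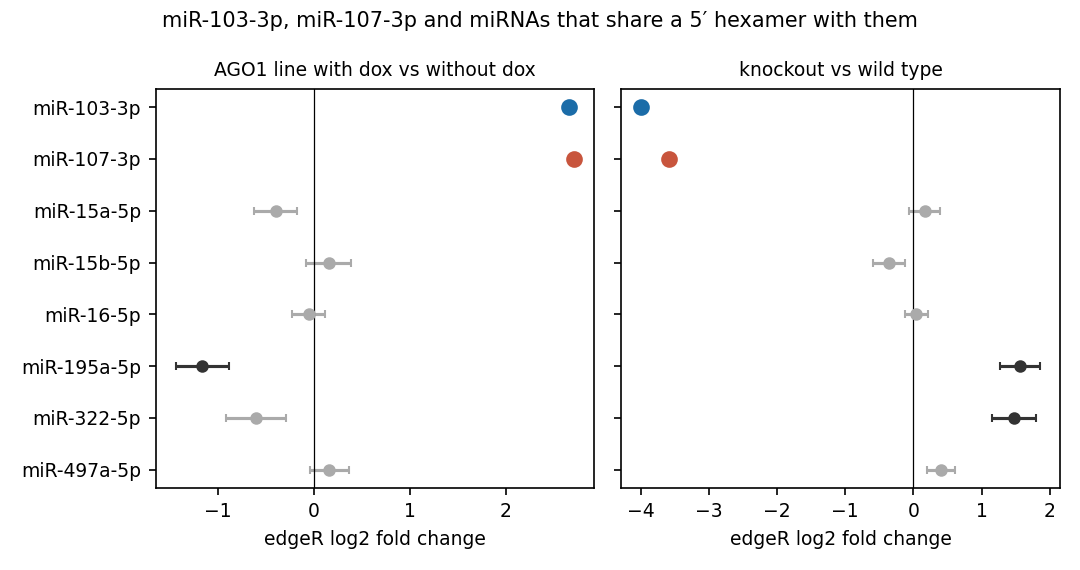
edgeR log2 fold changes of miR-103-3p and miR-107-3p (coloured, given as a description) and of the 6 tested relatives (bars are SE; dark points passed an adjusted p under 0.05, grey points did not), with doxycycline against without (left) and in the knockout against wild type (right). The pair lies at 2.66 and 2.71 on the left and at -3.99 and -3.59 on the right, and the relatives lie between -1.16 and 0.17 on the left and between -0.36 and 1.56 on the right.

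In the other comparisons edgeR called none of the 6 relatives. For the uninduced line against the knockout their median log2 fold change was -0.06, and of all tested miRNAs edgeR called 0%, with 72 of 475 at an unadjusted p under 0.05 and 8 called by DESeq2. None of the relatives had an unadjusted p under 0.05 there, by edgeR. Without knockout line 2, miR-322-5p was called lower in that comparison (-0.83, edgeR adjusted p = 0.0372). For the induced line against wild type, where edgeR called 38.9% of all tested miRNAs, the relatives' median was 0.31. There 2 had an unadjusted p under 0.05 by edgeR, namely miR-195a-5p and miR-497a-5p, and DESeq2 called 0. The shares of all tested miRNAs at these 2 settings are not given here, so both counts are description only. Another fit raised the calls to 3 with only the 2 groups and to 4 without the 2 shallowest libraries, all higher, and to 4 with the replicate block, of which 3 were higher. These fits called more of all tested miRNAs too, namely 256 of 467 with only the 2 groups, 263 of 518 without the 2 shallowest libraries and 250 of 483 with the block, where the fit of all libraries called 185 of 475. Without wild type A, miR-497a-5p was called higher (0.85, edgeR adjusted p = 0.0474).

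miRNAs whose levels most resembled those of the pair were found among the other 384 tested miRNAs with a mean of at least 20 CPM, by the root mean square distance of log2 levels centred on each miRNA's mean over the 8 libraries. Each miRNA was compared over all 8. The nearest to miR-103-3p was miR-107-3p itself, at 0.29, where the median distance of all was 1.78. It was followed by miR-143-3p (0.32), known from smooth muscle, miR-487b-3p (0.41) and miR-431-5p (0.42) of the imprinted Dlk1-Dio3 region, and miR-421-3p (0.43). The nearest to miR-107-3p were miR-143-3p (0.27), miR-103-3p (0.29), miR-421-3p (0.33), miR-186-5p (0.38) and miR-487b-3p (0.40). Within the pair such nearness cannot be told apart from misplaced reads of miR-103-3p. miR-143-3p had 1942 and 1781 CPM with doxycycline, 252 and 291 without it, 352 and 347 in the knockout lines, and 3142 and 3689 in wild type. Outside the pair no row of the table with a sequence in RefSeq's table has their seed. Of the miRNAs named here, miR-143-3p, miR-487b-3p and miR-421-3p had no sequence matched there by name, so their seeds were not compared.

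**Figure D5:**
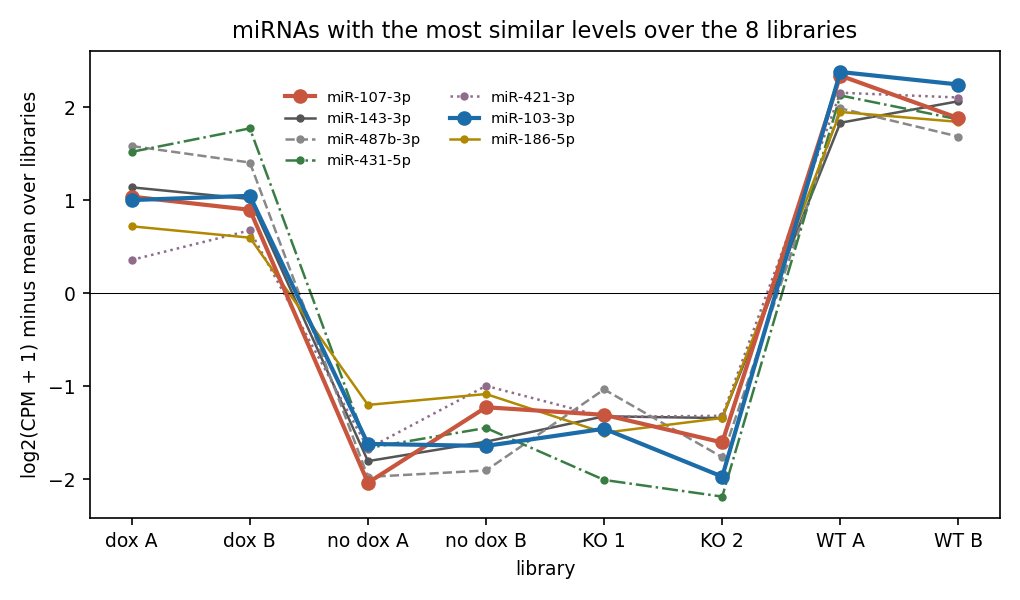
log2(CPM + 1) minus its mean over the 8 libraries for miR-103-3p (blue), miR-107-3p (red) and the miRNAs nearest to either of them, with lines that join the libraries of 1 miRNA. All 7 profiles are below their mean in the 2 uninduced and 2 knockout libraries and above it in the 2 induced and 2 wild type libraries.

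Of 16 miRNAs listed for known links to insulin action or lipid metabolism, a field in which the pair is well studied, 11 passed the filter. In the knockout 2 of them rose and 3 fell, where 25.5% of all tested miRNAs were called higher and 32.2% lower, so the counts lie near the background. Their median log2 fold change was -0.12, the same as for all tested miRNAs (-0.12). miR-143-3p, reported to impair insulin signalling in mouse liver, fell, with a log2 fold change of -3.29 ± 0.20 by edgeR (adjusted p = 8.16e-07). miR-27b-3p, linked to lipid metabolism in liver, was at 14053 and 10966 CPM in the knockout lines, against 28134 and 22434 CPM in wild type (-1.01 ± 0.19, edgeR adjusted p = 0.00164). miR-26b-5p was the third that fell (-0.76 ± 0.24, edgeR adjusted p = 0.0222). It no longer passed when wild type A (edgeR adjusted p = 0.220), knockout line 1 (0.0601) or the 2 shallowest libraries (0.0624) were left out, with only the 2 groups in the fit (0.0867) or on library totals without TMM factors (0.103). miR-375-3p, the islet miRNA that curbs insulin secretion, rose by 2.98 ± 0.35 (edgeR adjusted p = 8.67e-05), and miR-34a-5p by 1.07 ± 0.24 (edgeR adjusted p = 0.00415).

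With doxycycline against without it 1 of the 11 was higher and 2 lower, where 21.1% of all tested miRNAs were called higher and 7.79% lower, with a median of -0.40 beside 0.03 for all tested miRNAs. miR-143-3p was higher (2.78 ± 0.20, edgeR adjusted p = 4.05e-06). miR-375-3p was lower, at 94.1 and 87.7 CPM with doxycycline and 349 and 370 CPM without it (-1.98 ± 0.33, edgeR adjusted p = 0.00168). miR-34a-5p was also lower (-1.13 ± 0.23, edgeR adjusted p = 0.00582), a call lost without induced library A (edgeR adjusted p = 0.0732) or B (edgeR adjusted p = 0.0721). miR-29c-3p, at -0.69 (edgeR adjusted p = 0.167), passed with only the 2 groups in the fit (edgeR adjusted p = 0.0321).

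In the induced line against wild type 4 of these 11 were lower and 1 higher, where 19.8% of all tested miRNAs were called lower and 19.2% higher. miR-27b-3p was lower (-1.41 ± 0.19, edgeR adjusted p = 0.000643). The calls of miR-26b-5p as lower (-0.68) and miR-375-3p as higher (1.09) were lost without any 1 of the 4 libraries, with edgeR adjusted p of 0.0861 to 0.382 and 0.0651 to 0.146. That of miR-143-3p as lower (-0.88) was lost without induced A (edgeR adjusted p = 0.0801) or B (0.115), and that of miR-33-5p as lower (-1.24) without wild type A (edgeR adjusted p = 0.185), induced A (0.148) or induced B (0.202). For the uninduced line against the knockout edgeR called 0 of the 11 (1 at an unadjusted p under 0.05, miR-27b-3p), as it called 0% of all tested miRNAs. Without knockout line 2, miR-27b-3p was called lower there (-0.64, edgeR adjusted p = 0.0372), and without knockout line 1 miR-33-5p was (-1.33, edgeR adjusted p = 0.0485).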

How the data were processed

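Libraries came from total RNA (1 µg) and an Illumina TruSeq small RNA kit, per the labels' protocols. The authors deposited 1 table of raw counts for mature miRNAs. The submitters' processing notes name Bowtie and the mm10 build. Trimming, mismatches and the handling of multiply matching reads: not given in the sources used here. Of 2 header lines the first, which matches the sample titles, was used. The 475 miRNAs passing filterByExpr held 99.9% of counts. Tests used edgeR 4.0.16 (R 4.3.3), namely the quasi-likelihood F test, 2-sided, with TMM factors in 1 fit of 8 libraries in 4 groups (residual degrees of freedom: 4). P-values were adjusted by Benjamini-Hochberg over the 475 miRNAs of a comparison, and a call is an adjusted p under 0.05. They rest on the spread between the 2 libraries a group, estimated over all 4 groups together, which may be technical. Over the tested miRNAs the 2 knockout lines correlated at 0.90 (Spearman), and the 2 libraries of each other group at 0.97 to 0.99. SE, which is approximate, is the size of the log2 fold change over the root of F. The code was tested on simulated data. Alternatives included DESeq2 1.42.0. The members, lists, tests and alternatives were chosen with earlier results of these data known. Named miRNAs are the pair, the other arms of its hairpins, the AGCAGC relatives, the 5 nearest patterns of each, the metabolism list and the markers. Sequences are RefSeq's on GRCm38.p6, where 1621 of 1915 rows matched by name.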

Additional observations from a re-analysis of the deposited data

How the results depend on the processing

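Depth limits miR-107-3p, with 4 to 11 counts in each uninduced or knockout library. The alternatives were no TMM factors (library totals), DESeq2's size factors, its Wald test, no filter, the 2 groups alone, a replicate block, and leaving out each library or both shallowest. In all of them the pair kept its direction, except between the uninduced line and the knockout, where each changed sign in some.

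For miR-103-3p the log2 fold change with doxycycline against without was 2.59 with DESeq2 size factors and with the DESeq2 Wald test, 2.45 on library totals, 2.75 without a filter, and 2.49 to 2.80 with 1 library left out. Without the 2 shallowest libraries it was -3.59 in the knockout against wild type and -1.10 in the induced line against wild type. With 1 library left out it ran from -1.36 to -1.04 in the induced line against wild type, where miR-107-3p ran from -1.38 to -0.74, and miR-107-3p from -3.80 to -3.16 in the knockout against wild type. The knockout's ratio of miR-103-3p to miR-107-3p was 8.75 to 10.1 with 1 line left out.

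For the uninduced line against the knockout 0 miRNAs were called by edgeR (72 at an unadjusted p under 0.05), 2 on library totals, 8 by DESeq2, 14 without a filter, 25 without the 2 shallowest libraries, and 0 to 61 with 1 library left out (61 without knockout line 1, 33 without line 2). With doxycycline against without, 137 calls became 57 to 78 with 1 library left out (57 without uninduced A and 75 without B, 78 without induced A and 69 without B). In the induced line against wild type 185 calls became 75 to 105 (105 without induced A and 75 without B, 102 without wild type A and 105 without B). A lone library left in a group is assumed to vary like the others. On library totals the median of all tested miRNAs moved to 0.16 in the knockout against wild type, where it was -0.12, with calls split 155 higher and 111 lower in place of 121 and 153. With doxycycline against without, it moved to -0.17 in place of 0.03, with 83 higher and 64 lower in place of 100 and 37. For the uninduced line against the knockout it was -0.19 in place of -0.01.

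Of the relatives, 0 to 1 were called in the uninduced line against the knockout with 1 library left out. With doxycycline against without, where 1 was called, there were 2 on library totals, with the 2 groups alone, without the 2 shallowest libraries and with the replicate block, and 0 to 1 with 1 library left out (0 without uninduced A or induced B). In the induced line against wild type, where 0 were called, there was 1 at a mean of at least 20 CPM, 3 with the 2 groups alone, 4 without the 2 shallowest libraries and 4 with the replicate block, and 0 to 1 with 1 library left out. The number called among all tested miRNAs is not given for every one of these fits, so these counts are description only. The cause was not tested.

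The replicate block used the letters A and B of the 6 libraries that carry them. Deviations of same-lettered libraries correlated at 0.20 between the induced and uninduced line, and at -0.01 and 0.05 between each of these and wild type, so the letters were not taken to pair the libraries. With the block the pair stood at 2.65 and 2.78 (log2) with doxycycline against without, and the block called 192 miRNAs there and 250 in the induced line against wild type.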
